A study of Mus musculus with 2 samples.

Results

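The kinetochore, spindle and cytokinesis genes are a set of 46 genes whose products build the mitotic spindle, attach chromosomes to it, watch over that attachment and divide the cell. They were chosen by a list of gene names, drawn up with earlier results of these data in view, so that every value of these genes below is a description and carries no test. The array held 63 probes for them among 55681 probes, and all 46 were among the 14880 genes measured, that is, with a probe well above background on at least 1 array. All 46 were well above background on both arrays.

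The values come from 4T1 cells, a BALB/C mouse mammary carcinoma line, in untreated culture. They were sorted with the ALDEFLUOR assay, in which the activity of aldehyde dehydrogenase (ALDH) makes cells fluoresce, into cells of high activity (ALDH-positive 4T1 cells, called cancer stem cells in the labels) and low activity (ALDH-negative 4T1 cells, the labels' anti cancer stem cells). Total RNA of each population was labelled with Cy3 and hybridized to 1 one-colour Agilent array with probes of 60 bases. Since neither population had a second array, no difference had a replicate check, and no p-value was computed.

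In mitosis, kinetochores assemble on the CENP-A nucleosomes of each centromere and capture spindle microtubules through the NDC80 complex. Until every kinetochore is attached, the spindle checkpoint (MAD2, BUBR1 and BUB3 bound to CDC20) holds back the anaphase-promoting complex, a ubiquitin ligase that then marks securin and cyclin B for destruction. Separase opens cohesin, the chromatids part, and the midzone factors PRC1, RACGAP1 and ECT2, with the ring scaffold anillin, place the contractile ring. Transcripts of many of these genes build up in the later part of the cell cycle, through a CHR (cell cycle genes homology region) element and CCAAT boxes near the start site, which are bound by the MuvB complexes and NF-Y respectively.

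The promoters were examined for these elements as a description. Many genes of this machinery are known to carry them, so that a raised share follows from the choice of the list. The timing of expression was not measured here. In windows reaching from 250 bases before to 50 bases after the RefSeq start (assembly GRCm38.p6), 39 of the 46 genes could be matched, and TTTGAA, the CHR, was found on either strand in 27 of them (69.2%). The same letters were found in 20.2% of the windows of all 27025 genes. CCAAT was found in 31 of the 39 (79.5%) against 41.1% of all genes, and both motifs stood in 25 (64.1%) against 8.97%. Of 11 members with a CHR in the last 100 bases before the start, the 4 of highest and the 2 of lowest log2 ratio between the populations are shown here, 5′ to 3′ on the strand of the gene and ending at the base before the start. Capitals mark TTTGAA or its reverse TTCAAA and CCAAT or its reverse ATTGG.
Prc1: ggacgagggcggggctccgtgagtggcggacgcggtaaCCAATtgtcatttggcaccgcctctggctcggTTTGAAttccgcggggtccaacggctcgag
Ube2c: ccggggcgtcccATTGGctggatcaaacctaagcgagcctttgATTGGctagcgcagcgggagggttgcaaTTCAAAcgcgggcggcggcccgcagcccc
Espl1: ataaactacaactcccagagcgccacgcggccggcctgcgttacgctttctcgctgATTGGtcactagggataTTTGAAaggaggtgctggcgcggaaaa
Cdc20: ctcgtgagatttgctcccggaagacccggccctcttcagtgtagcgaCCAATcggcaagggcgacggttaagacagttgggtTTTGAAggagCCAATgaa
Bub3: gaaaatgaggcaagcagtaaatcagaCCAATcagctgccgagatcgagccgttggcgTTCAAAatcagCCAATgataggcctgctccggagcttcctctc
Kntc1: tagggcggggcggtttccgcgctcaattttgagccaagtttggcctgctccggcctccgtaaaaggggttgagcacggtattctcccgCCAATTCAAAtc

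These stretches lie at chr7:80294376-80294475 (*Prc1*, plus strand), chr2:164769829-164769928 (*Ube2c*, plus), chr15:102296193-102296292 (*Espl1*, plus), chr4:118437344-118437443 (*Cdc20*, minus), chr7:131560270-131560369 (*Bub3*, plus) and chr5:123749626-123749725 (*Kntc1*, plus). In *Prc1*, *Ube2c* and *Espl1* the CHR began 30, 29 and 27 bases before the start, with a CCAAT or ATTGG further upstream. In *Cdc20* and *Bub3* a CCAAT stood on either side of it, and in *Kntc1* the CCAAT and the TTCAAA shared a T. The letters did not sort the members by their difference between the populations. The 27 members with a CHR had a median log2 ratio (ALDH-positive over ALDH-negative) of 0.26, and the 12 without one had 0.23. The lists set beside the members below differed in these letters as well. The CHR was found in 10 of 11 matched mitotic kinesins (90.9%), in 20 of 68 further mitotic genes (29.4%) and in 4 of 24 DNA replication genes (16.7%), whereas CCAAT was found in 63.6%, 52.9% and 62.5% of them.

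**Figure D1:**
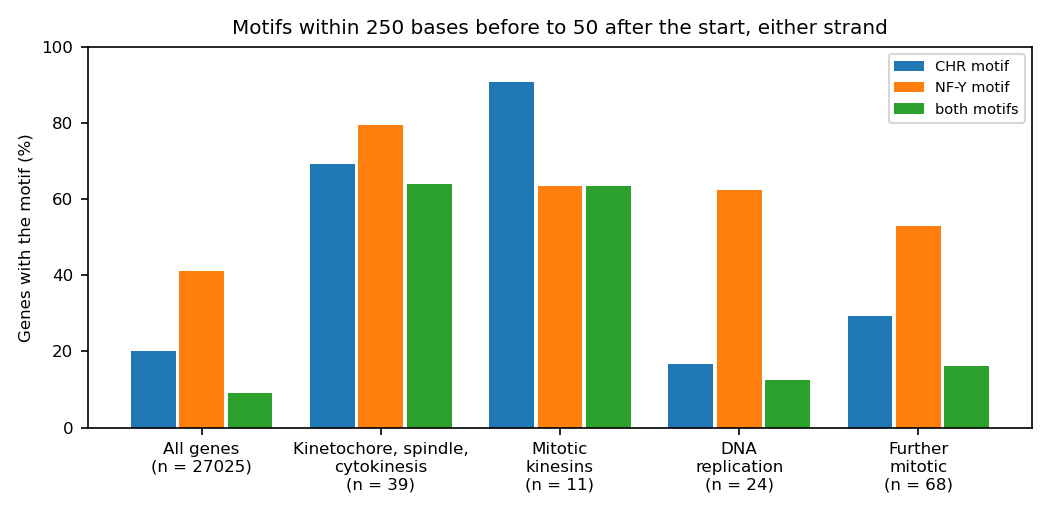
Share of genes (%) whose promoter window holds the CHR motif (TTTGAA), the NF-Y motif (CCAAT) or both, for all genes and 4 gene lists, with the number of matched genes under each list. Both motifs stood together in 64.1% of the kinetochore, spindle and cytokinesis genes and in 8.97% of all genes.

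Most genes of this machinery gave a somewhat larger signal in ALDH-positive 4T1 cells. Of the 46 genes, 41 (89.1%) had a log2 ratio above 0, against 59.5% of all measured genes, and 5 had one below 0. The median log2 ratio was 0.25, a ratio of 1.19, with a range of -0.11 to 0.61, and the median of all measured genes was 0.042. The differences were small. The middle 50% of the members lay between 0.10 and 0.38, and 21 members had a ratio above 1.2, as did 16.9% of all measured genes. Median signals of the members were 3828 units in ALDH-negative and 4506 units in ALDH-positive cells, against 598 and 619 for all measured genes. A signal here is the background-subtracted fluorescence of a probe, quantile-normalized over both arrays, and signals of different probes are not levels of different transcripts.

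No member was past the limits of the study's selection in either direction. A gene was called higher where its ratio was at least 1.5 and its Z-score at least 2.0, and lower where its ratio was at most 0.75 and its Z-score at most -2.0. The Z-score set its log2 ratio against 250 probes of similar brightness on either side. Of all measured genes, 1.37% were higher and 2.3% lower. On the Z-score alone, 8 members reached 2.0 (17.4%, against 2.37% of all measured genes) and none reached -2.0 (against 2.5%). With the Z-score taken over all probes, 0 members reached 2.0, against 1.59% of all measured genes, so that this count depends on the set of probes behind the Z-score. The 8 were *Aurka*, *Prc1*, *Ube2c*, *Plk1*, *Incenp*, *Espl1*, *Ncaph* and *Spc25*, with ratios between 1.31 and 1.40. *Aurkb* was past the ratio and short of the Z-score. The scanner's error of a log2 ratio, which covers the measurement of a spot and not the spread between cultures, was 0.20 to 0.22 for the members. By that error 28 members lay clear of 0 on the upper side, as did 20.9% of all measured genes, and none on the lower side, against 13.3%. The error hardly differed between members (median 0.20), so that these counts come close to a fixed cut at a log2 ratio of 0.20. Repeat spots differed less, with an SD of 0.075 for the log2 ratio from probes printed 10 times.

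**Figure D2:**
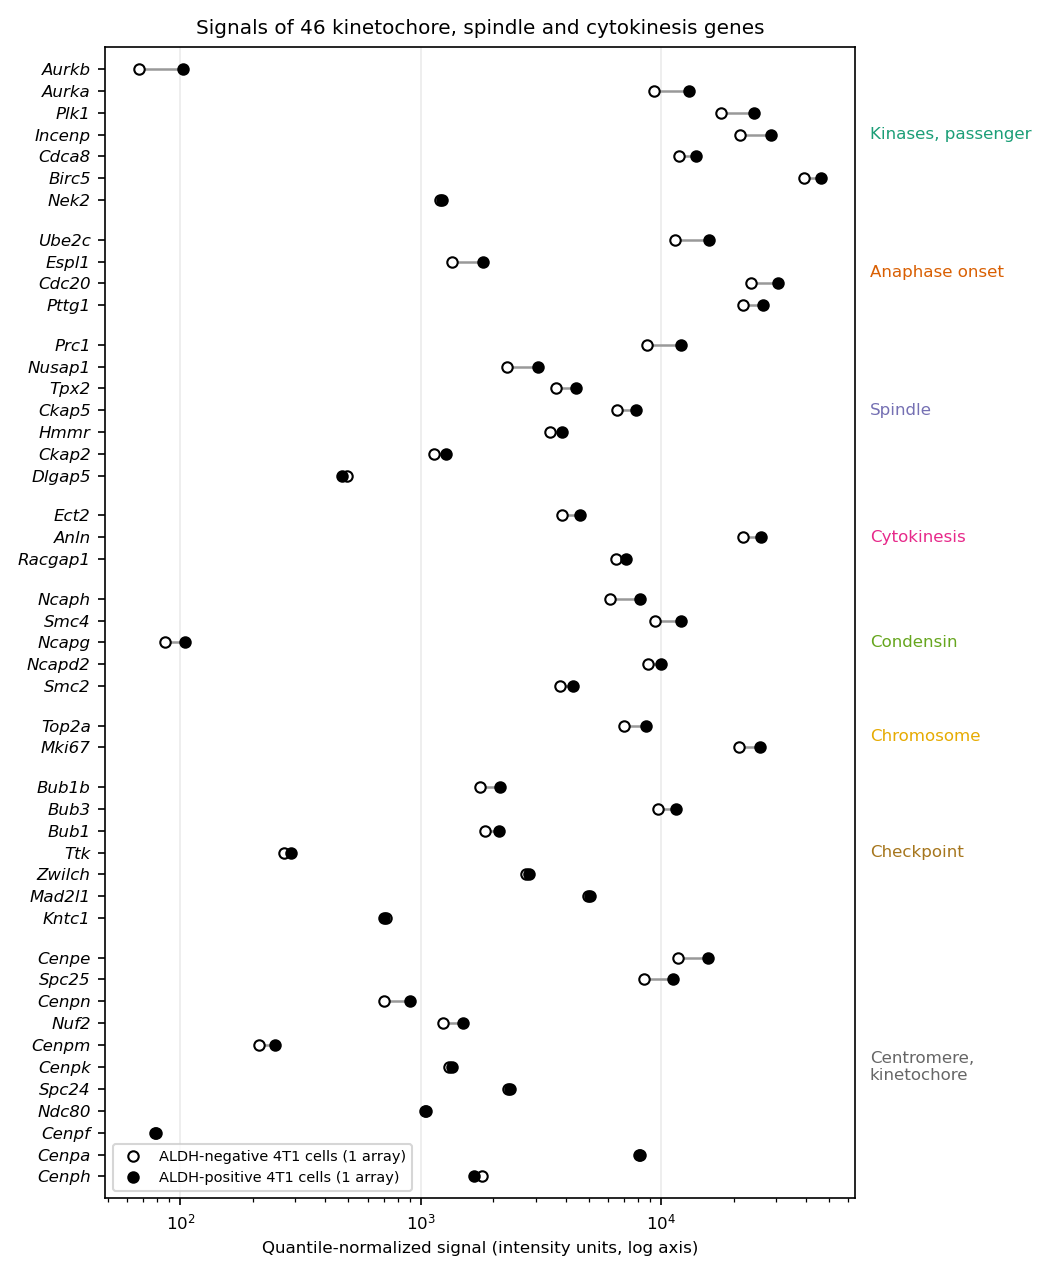
Quantile-normalized signal (intensity units, log axis) of each of the 46 genes in ALDH-negative (open) and ALDH-positive (filled) 4T1 cells, 1 array each, grouped by role. The filled point lies to the right of the open point for 41 genes, and signals run from 67.5 to 45972 units.

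Some measurements of the arrays move with these values. Before normalization the median log2 ratio of all measured probes was 0.49 and that of the members 0.78, so that normalization removed the larger part of the raw difference. The spots of 12 members lay in the end strips of the array, that is, in the last eighth of its rows or in that of its columns (26.1%, against 23.7% of all measured genes). The 12 had a median log2 ratio of 0.40 and the other 34 had 0.24. For all measured genes the medians were 0.036 in the strips and 0.044 elsewhere, but the Z-score reached 2.0 in 3.93% of genes there and 1.89% elsewhere. Of the members, 4 of the 12 and 4 of the 34 reached 2.0. The part of array position in the result was not tested. Without the strips 37 members remained, since *Incenp*, *Dlgap5* and *Mad2l1* each had a dimmer probe elsewhere that then stood for the gene. The median of the 37 was 0.25, and 33 lay above 0. Brightness moved with the ratio too: the 23 brighter members had a median of 0.29 and the 23 dimmer ones 0.17, where all measured genes above and below the same signal had 0.035 and 0.046.

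The listed markers of cell types were mixed, with epithelial markers and some markers of other cell types well above background. All 5 listed epithelial markers were well above background, the keratin *Krt18* at 206389 and 231164 units, with log2 ratios between 0.15 and 0.40. Of the listed markers of other cell types, 7 were measured. The leukocyte integrin *Itgam* was lower in ALDH-positive cells (7301 against 3795 units, log2 ratio -0.94), although its 3 probes ran from -0.94 to 0.38, and the endothelial receptor *Kdr* was lower (7292 against 5394). The T cell gene *Cd3e* was well above background, at 917 and 664 units (-0.47), and was not called. The other 4 were dim, *Col1a1* at 28.2 and 17.3 units (-0.70), *Pecam1* with a log2 ratio of 0.21, *Pdgfra* at 135 and 132 (-0.027) and *Col1a2* at 40.0 and 39.5 (-0.020). The defining leukocyte gene *Ptprc*, and *Adgre1*, *Cdh5*, *Tek*, *Dcn* and *Thy1*, were not above background on either array. The part of other cells in the members' values was not tested. In RNA from a whole population, a larger share of cells in mitosis and more transcript per cell cannot be told apart.

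The mitotic kinases and the chromosomal passenger complex had a median of 0.43, with 7 of 7 above 0. *Aurka*, the centrosomal kinase needed for spindle assembly, gave 9331 units in the ALDH-negative and 13062 in the ALDH-positive population (log2 ratio 0.49, Z-score 2.51, probe at chr2:172181726-172181785 of NCBI37). *Plk1*, which drives mitotic entry and centrosome maturation, gave 17768 and 24335 units (0.45, Z-score 2.48, chr7:129313220-129313279). Both ratios were over 1.35, and the single *Aurka* probe lay in the end strips, so that it has no value without them. *Incenp*, the scaffold of the passenger complex, gave 21206 and 28661 units (0.43, Z-score 2.31), and its second probe gave 15812 and 22207 (0.49). The first *Incenp* probe lay in the end strips and the second did not.

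The kinase of that complex, *Aurkb*, had the highest log2 ratio of all members and, in ALDH-negative cells, the lowest signal. It gave 67.5 and 103 units (0.61, Z-score 1.64) on a single probe in the end strips. The value was 0.31 without background correction and 0.35 with another correction, and the group's median followed it to the same 2 values. Without the end strips, 5 of the 7 genes remained, with a median of 0.24. The other passenger proteins were closer to 0. *Birc5*, survivin, had the brightest signals of the members, 39139 and 45972 units (0.23), and *Cdca8*, borealin, had 11871 and 13945 (0.23). *Nek2*, a centrosome-splitting kinase, was nearly level at 1196 and 1228 units (0.038).

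The genes of anaphase onset had a median of 0.41, with all 4 above 0. *Ube2c*, the ubiquitin-conjugating enzyme that works with the anaphase-promoting complex, gave 11452 and 15761 units (0.46, Z-score 2.25, chr2:164598016-164598075), and a second probe gave 10658 and 14172 (0.41). *Espl1*, separase, gave 1351 and 1818 units (0.43, Z-score 2.09). *Cdc20*, the activator of the ligase and the target of the checkpoint, gave 23551 and 30691 (0.38, Z-score 1.97), just under the limit, with its spot in the end strips. *Pttg1*, securin, the inhibitor of separase, gave 21811 and 26527 (0.28). Inhibitor and enzyme both had a log2 ratio above 0, as did 89.1% of all members.

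Among the spindle factors 6 of 7 were above 0, with a median of 0.26. *Prc1*, which bundles the microtubules of the spindle midzone, gave 8724 and 12043 units (0.47, Z-score 2.56, the highest among the members, chr7:87461048-87461107), on a single probe in the end strips. *Nusap1*, a microtubule-stabilizing protein, gave 2279 and 3056 (0.42), and *Tpx2*, the activator of Aurora A on the spindle, 3661 and 4412 (0.27). *Ckap5*, a microtubule polymerase, gave 6521 and 7822 (0.26). The remaining 3 lay nearer to 0. *Hmmr* had a log2 ratio of 0.17 and *Ckap2* of 0.16, while *Dlgap5*, a kinetochore-fibre factor, gave 494 and 471 units (-0.069). Of the 3 cytokinesis genes, *Ect2*, the exchange factor that activates RhoA, gave 3856 and 4602 units (0.26) and the ring scaffold *Anln* 21933 and 25924 (0.24). *Racgap1*, the partner of ECT2 at the midzone, was nearer to 0, at 6509 and 7136 (0.13, within the scanner error).

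**Figure D3:**
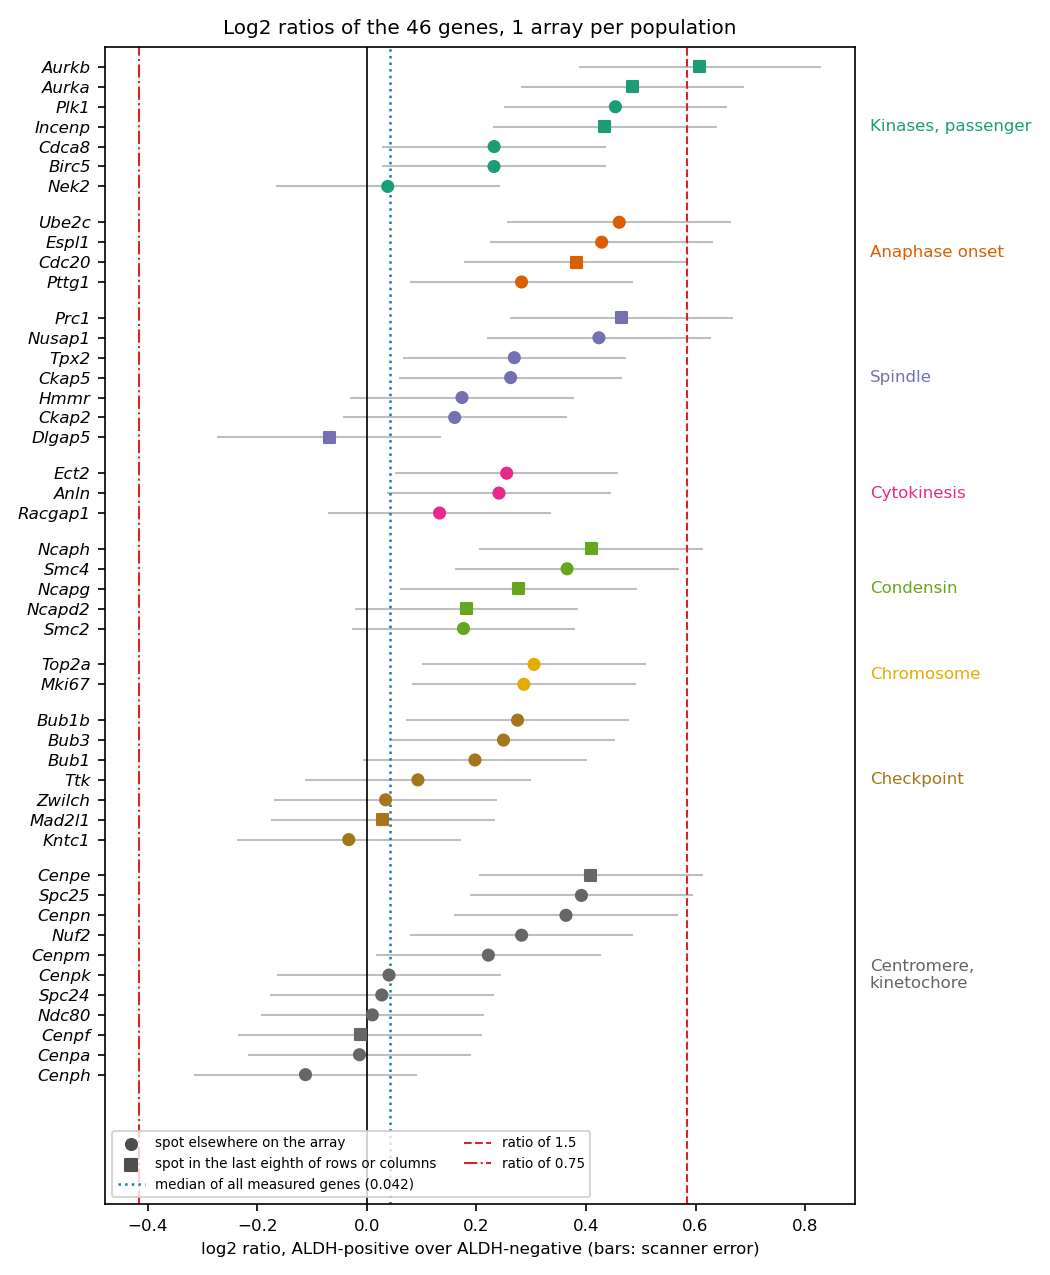
Log2 ratio between the ALDH-positive and the ALDH-negative array of the 46 genes by role, with the scanner error as bars, squares for spots in the end strips of the array, and lines at the median of all measured genes (0.042) and at ratios of 1.5 and 0.75. Only *Aurkb* lies past the line at 1.5, and 5 genes lie below 0. The kinase, anaphase, cytokinesis, condensin and chromosome groups lie wholly above 0.

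The condensin genes and the chromosome proteins were all above 0. *Ncaph*, the kleisin of condensin I, gave 6142 and 8159 units (0.41, Z-score 2.30), in the end strips. The ATPase pair differed somewhat, *Smc4* at 9386 and 12092 units (0.37) and *Smc2* at 3801 and 4295 (0.18). *Ncapg* was dim, at 86.6 and 105 units (0.28), and *Ncapd2* gave 8788 and 9972 (0.18), both in the end strips. The condensin median of 0.28 was the value of *Ncapg*. Without the end strips 2 of the 5 condensin genes remained, with a median of 0.27. *Top2a*, the topoisomerase that untangles sister chromatids, gave 7015 and 8667 units (0.31). *Mki67*, the Ki-67 protein that coats mitotic chromosomes and a common marker of cycling cells, gave 21083 and 25715 (0.29), and 16210 and 17619 on a second probe (0.12, within the scanner error).

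The checkpoint genes lay closer to the bulk of the genome, with a median of 0.093 and 6 of 7 above 0. Of the 7, 4 lay above the median of all measured genes, 0.042. *Bub1b* (BUBR1) gave 1756 and 2125 units (0.28) and *Bub3* 9665 and 11489 (0.25). These make up the inhibitor of CDC20 together with *Mad2l1*, which gave 4967 and 5068 (0.029). The kinase *Bub1* was the one member printed 10 times on each array, which shows how far repeat spots differed. Before normalization its spots ran from 1461 to 1637 units (median 1534) on the ALDH-negative array and from 2511 to 2652 (median 2579) on the ALDH-positive array. The spot-by-spot log2 ratios had a mean of 0.74 with an SD of 0.050 (10 spots), and 3 spots of the ALDH-negative array were marked as outliers by the scanner software. The 3 spots in the end strips and the 7 elsewhere had the same median, 0.74. At that stage the median log2 ratio of all measured probes was 0.49, so that the larger part of the gap was common to the array. After normalization the log2 ratio of *Bub1* was 0.20, within the scanner error. Such repeat spots share 1 RNA and say nothing of the spread between cultures. *Ttk* (MPS1, the kinase at the top of the checkpoint) gave 270 and 288 units (0.093). Of the RZZ complex that loads the checkpoint proteins, *Zwilch* gave 2739 and 2805 (0.034) on its brighter probe and 1576 and 1830 (0.22) on the other, and *Kntc1* gave 718 and 701 (-0.033).

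The centromere and kinetochore genes had the lowest median, 0.041, with 8 of 11 above 0 (72.7%, against 59.5% of all measured genes). The median of all measured genes was 0.042, and 5 of the 11 lay above it. *Cenpe*, the kinetochore motor that congresses chromosomes, gave 11739 and 15587 units (0.41, Z-score 1.97), on a single probe in the end strips. *Cenpn*, which reads the CENP-A nucleosome, gave 703 and 905 (0.36). The other centromere proteins were nearer to 0. *Cenpm* was at 0.22 and *Cenpk* at 0.041. *Cenpa*, the centromeric histone itself, gave 8182 and 8107 units (-0.013), *Cenpf* 79.4 and 78.7 (-0.012, in the end strips) and *Cenph* 1802 and 1668 (-0.11), the lowest log2 ratio of the 46.

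The 4 subunits of the NDC80 complex, which bind each other in fixed proportion, had log2 ratios from 0.010 to 0.39. *Spc25* gave 8508 and 11162 units (0.39, Z-score 2.14) and *Nuf2* 1233 and 1500 (0.28). *Spc24*, the direct partner of *Spc25*, gave 2298 and 2342 (0.027), and *Ndc80*, the partner of *Nuf2*, 1040 and 1047 (0.010). All 4 rest on a single measured probe, and the differences between partners were not tested.

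Several members had more than 1 measured probe, which shows how much of a value belongs to a probe. Of 13 such genes, 9 had probes within 0.25 of each other and 9 had probes on the same side of 0. *Mad2l1* had the widest range. Its probes gave 4967 and 5068 units (0.029), 438 and 371 (-0.24) and 332 and 241 (-0.47), and only the dimmest lay outside the end strips. The sign of *Mad2l1* therefore depended on the probe. *Dlgap5* had -0.069 on a probe in the strips and 0.32 on a dimmer probe elsewhere (252 and 316 units). The *Tpx2* probes gave 0.27 and 0.59, the second at 110 and 164 units, and those of *Birc5* gave 0.23, 0.065 and -0.028 in order of brightness. In 8 of the other 9 genes the probes had the same sign, with the narrowest range in *Racgap1* (0.13 and 0.14), and the dimmer probes of *Cdca8* and *Pttg1* gave 0.013 and 0.44. The ninth was *Cenpk* (0.041 and -0.032). The brightest probe stood for each gene in all counts above.

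**Figure D4:**
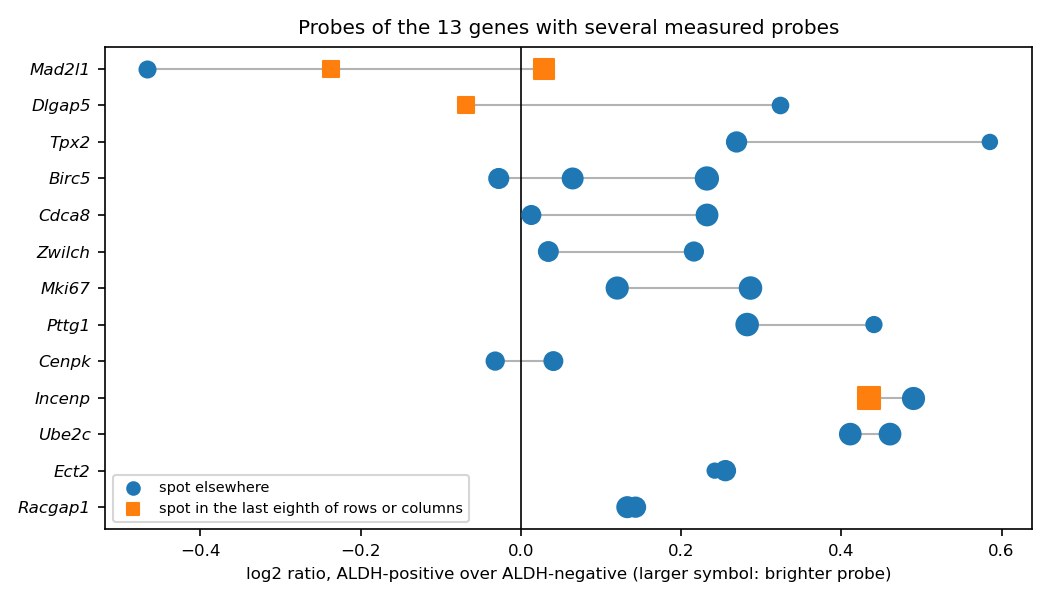
Log2 ratio between the ALDH-positive and the ALDH-negative array of every measured probe of the 13 genes with more than 1, larger symbols for brighter probes and squares for spots in the end strips. *Mad2l1* spans 0.029 to -0.47, whereas the probes of *Racgap1* and *Ect2* nearly coincide.

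The other lists give the setting for these values, and they were chosen with results of these data known. The 12 mitotic kinesins, motors of the same spindle, were all above 0, with a median of 0.45 and a range of 0.16 (*Kif11*) to 0.59 (*Kif2c*). *Kif2c*, a microtubule-depolymerizing kinesin, was the one called higher (1 of 12, against 1.37% of all measured genes), at 500 and 755 units. Its other probe had a log2 ratio of 0.34. On the Z-score alone, against 250 probes on either side, 6 of 12 kinesins reached 2.0, as did 2.37% of all measured genes. The 30 DNA replication genes lay on the other side, with 24 below 0, a median of -0.072 and none called. The lowest were *Cdc45*, a subunit of the replicative helicase, at 333 and 241 units (-0.46), and *Cdc6*, which loads its MCM core, at 1163 and 884 (-0.39). The highest were the uracil glycosylase *Ung* (19906 and 26836, 0.43) and *Tk1* (0.16, with a lowest probe at -0.64). Scaling both arrays to their 75th percentile instead turned the replication median to 0.0049 with 14 genes below 0, as it also raised the median of all genes to 0.084. Under either scaling 24 of the 30 lay below the median of all measured genes. For the members, 35 lay above it under quantile normalization and 40 under the other scaling.

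The mitotic genes outside the 46 and the kinesins were nearer to the bulk of the array. Of 82 listed, 81 were measured (all but *Anapc10*), with 66 above 0 (81.5%, against 59.5% of all measured genes) and a median of 0.081. Of the 81, 1 was called higher, where 1.37% of all measured genes were. It was *Fzr1* (CDH1, the activator of the anaphase-promoting complex in late mitosis and G1), at 5336 and 8346 units (0.65, Z-score 3.77), with 0.32 on its other probe. Over the complex and its partners, *Fzr1* included, 11 of 14 measured genes were above 0, with a median of 0.078, and *Cdc27* (-0.30) and *Cdc26* (-0.17) were lowest. In the further kinetochore genes the median was 0.093 (23 of 27 above 0), between *Cenpl* (0.43), *Sgo2a* (0.41) and *Mis12* (-0.19), *Zwint* (-0.11). The further spindle genes had 0.11 (20 of 23), with *Aspm* (0.44) and *Cep192* (0.41, but -0.39 on a dimmer probe) highest, and *Haus2* (-0.15) and *Tubgcp2* (-0.12) lowest. Cohesin and its regulators had 0.072 (8 of 11), from *Smc1a* (0.41) to *Pds5a* (-0.34). Further cytokinesis genes had 0.20 and condensin II 0.043, with 2 of 3 above 0 in each. None of these differences between lists was tested.

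**Figure D5:**
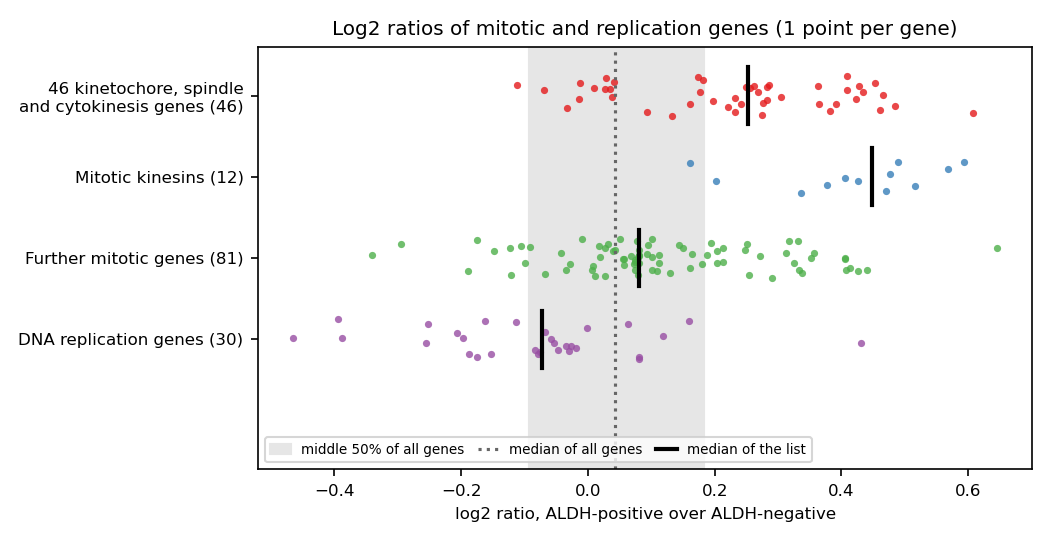
Log2 ratio between the ALDH-positive and the ALDH-negative array of each measured gene in 4 lists, with the number of genes in brackets, black bars at the list medians, and the middle 50% of all measured genes in grey. The medians are 0.25, 0.45, 0.081 and -0.072 from top to bottom.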

How the data were processed

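The mRNA of 1 ALDH-negative and 1 ALDH-positive population of 4T1 cells was measured, 1 array each. The authors scanned the arrays and extracted 62976 spots per array with Feature Extraction from Agilent (10.7.1.1 per the file headers, 9.5.1.1 per the labels), and the deposited files give the background-subtracted intensity of each spot and its error. The deposited table of the authors holds quantile-normalized intensity values, which differed from the log2 ratios used here by at most 0.0072 for the members. The labels name the ReliaPrep kit for the RNA and the study's methods the RNeasy kit.

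Control spots and outlier spots (135 and 116 on the arrays) were left out, signals under 1 were set to 1, repeated spots were averaged, and log2 signals were quantile-normalized over both arrays (Python 3.11.15, numpy 2.4.6, pandas 2.3.3). The 75th percentiles of the signals were 234 and 322 before that, and 26983 and 27501 of 55681 probes were well above background. Probes printed 10 times (244) had a median SD of 0.058 and 0.048 (log2) within an array. The measured probe with the highest mean log2 signal stood for a gene. The methods do not define the Z-score, which was taken against the 250 next brighter and 250 next dimmer probes.

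Symbols came from RefSeq (GRCm38.p6) for 27235 probes named by accession and otherwise from the array files. Probes are placed as in the array files (NCBI37) and promoters as in RefSeq. Motifs were searched on both strands. The members and all lists, including the markers, were chosen with earlier results of these data known. One listed marker is not reported here. All members could be named. Full values were due to the 8 highest and 8 lowest log2 ratios and to at least 2 members of each role. They were also due to members with probes 0.5 or more apart. Of each further list the 2 highest and 2 lowest could be named, and only some of these were.

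No test was run, since each population had 1 array. Alternatives were a shift to the 75th percentile, normexp (limma 3.58.1, R 4.3.3, offset 50) or no background correction, the deposited table, the median over probes, a filter that kept probes well above background on both arrays, omission of the end strips (the last eighth of rows or columns), other neighbours for the Z-score (100, 500 or all probes) and a ratio limit of 1.5 both ways. The processing was tested on simulated data. Figures were drawn with matplotlib 3.10.9.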

Additional observations from a re-analysis of the deposited data

How the results depend on the processing

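No paired analysis was possible because each population had 1 array, and no array could be left out in turn. Under every alternative run no member was called higher or lower, the median of the members stayed between 0.23 and 0.31, and 41 or 43 of 46 members (33 of 37 without the end strips of the array) had a log2 ratio above 0. With the shift to the 75th percentile, the medians were 0.0049 for the DNA replication genes, 0.16 for the further mitotic genes, 0.48 for anaphase onset, 0.12 for centromere and kinetochore and 0.35 for the spindle factors. Without background correction the condensin median was 0.20 and that of the kinases and passenger complex 0.31, which normexp gave as 0.35 and the omission of the end strips as 0.24. The Z-score reached 2.0 in 8 members, in 9 with the shift to the 75th percentile and in 10 with 500 probes on either side. It did so in 0 when all probes were its reference and in 5 of 37 without the end strips. Of 313 recomputed log2 ratios of single members, 5 moved beyond the scanner error and 6 changed sign: *Cenpa* (0.062) and *Kntc1* (0.023) with the 75th percentile shift, and *Dlgap5* (0.13 and 0.32) and *Mad2l1* (-0.24 and -0.47) with the median over probes and without the end strips. Over all measured genes, 204 were called higher, but 111 with normexp and 100 without background correction, and 342 lower, but 217 with all probes behind the Z-score. The cause of these shifts was not tested.

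Both arrays carry 1 sorted population each, so the sort, the culture and the array cannot be told apart from the population. The scanner error covers a spot only, and dim members such as *Aurkb*, *Cenpf* and *Ncapg* rest on signals near 100 units.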
